A study of Mus musculus with 26 samples.

Results

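The 9 CC chemokine genes Ccl2, Ccl3, Ccl4, Ccl5, Ccl6, Ccl7, Ccl8, Ccl9 and Ccl12 and the receptor gene Ccr2 were followed in injured mouse muscle and in cultured myoblasts. These 10 genes were found by symbol, with 1 row each, among the 53465 genes listed for regenerating muscle and the 55487 listed for the myoblasts. For regeneration, tibialis anterior (TA) muscle of C57BL/6J mice, described in the methods as 6-week-old males, was sequenced on days 0, 1, 3, 5 and 10 of an injury made with cardiotoxin (CTX), a venom protein that destroys muscle fibres. The methods name saline as the control of the injury and the labels name day 0, so whether the day 0 muscle was untouched or given saline is not settled. The myoblasts were C2C12, an immortal mouse line that grows in growth medium (GM, D0 in the labels) and forms myotubes in differentiation medium, sampled after 3 days (DM3, D3 in the labels). The Cas9M3 cells carry dCas9 fused to the repressor KRAB and guides to the promoter of Mettl3, the enzyme that writes N6-methyladenosine (m6A) on RNA. They were selected with puromycin to give a stable line. For the CTRL cells the methods describe no construct or selection. The design text calls this a knockout, whereas the methods describe a knockdown by repression. There were 2 libraries for each of the 5 days and for each of the 4 cell groups.

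CC chemokines are small secreted proteins that draw leukocytes out of the blood by binding G protein-coupled receptors. CCL2, CCL7, CCL8 and CCL12, the monocyte chemoattractant proteins, attract monocytes, and CCL2, CCL7 and CCL12 act through CCR2, the receptor that lets inflammatory monocytes leave the bone marrow and enter damaged tissue. CCL3, CCL4 and CCL5 attract macrophages and T cells, and CCL6 and CCL9 bind CCR1. In injured muscle, neutrophils arrive first and monocytes follow, which become macrophages that clear debris and support the muscle stem cells.

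All values are FPKM, the fragments on a gene per kilobase of its length and scaled between libraries, which allows levels to be compared between genes within a table. The scaling did not follow the reads on genes. A read on 1 kb stood for 0.0507 FPKM in day 3 replicate 1 (14326348 reads) and 0.0803 FPKM in day 0 replicate 1 (16776205 reads). Scaling again by median ratios changed no count of genes called, so differences between groups rest on a scaling of that kind. The libraries held 14174100 to 18823200 reads on genes in muscle and 14230100 to 29567100 in the myoblasts, as read from the steps of the low values, of which 97.0% to 98.9% were whole multiples of 1 read within 0.05 reads. Loci of ribosomal RNA took 7.37% to 10.4% of the reads in muscle. In the myoblasts they took 0.54% to 0.73% in the replicate 1 libraries, 8.42% to 11.6% in replicate 2 of 3 groups and 29.5% in CTRL GM replicate 2, which stands apart and has the fewest other reads, 10033800. Xist, the RNA of the inactive X chromosome of females, was at 5.77 to 10.0 FPKM in both libraries of day 0, both of day 10 and day 3 replicate 2, and at most 0.152 FPKM in the other muscle libraries. The animals of days 1 and 5 therefore differ from those of days 0 and 10 in a marker of sex as well as in time, and the effects of these cannot be told apart there. Mettl3 was at 4.68 to 5.65 FPKM in the CTRL libraries and at 0.0805 to 0.331 FPKM in the Cas9M3 libraries.

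The 9 ligand genes lie in 2 groups on chromosome 11 (GRCm38, GENCODE M21). Ccl2 (ENSMUSG00000035385, chr11:82035571-82037453), Ccl7 (ENSMUSG00000035373, chr11:82045712-82047525), Ccl12 (ENSMUSG00000035352, chr11:82101845-82103400) and Ccl8 (ENSMUSG00000009185, chr11:82115185-82116799) follow each other on the plus strand. The next member lies 1409 kb further on, where Ccl5 (ENSMUSG00000035042, chr11:83525778-83530518), Ccl9 (ENSMUSG00000019122, chr11:83572919-83578636), Ccl6 (ENSMUSG00000018927, chr11:83587882-83593087) and Ccl3 (ENSMUSG00000000982, chr11:83647844-83649355) are on the minus strand and Ccl4 (ENSMUSG00000018930, chr11:83662584-83664683) is on the plus strand. Ccr2 (ENSMUSG00000049103) is on the plus strand at chr9:124101950-124113557. No exon of a member overlaps an exon of another gene. No stretch of 50 bases of a member's transcripts was shared with another member, and 8 of the 10 shared none with any gene. Of the Ccr2 stretches 1.91% were shared with other genes, and of the Ccl9 stretches 1.97% were shared with 250 genes, so a few reads of these genes could be counted elsewhere.

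RefSeq start sites (GRCm38.p6) were at hand for 6 members, namely Ccl3, Ccl6, Ccl8, Ccl9, Ccl12 and Ccr2. Entries for Ccl2, Ccl4, Ccl5 and Ccl7 were not used here. The 250 bases before the start are shown for Ccl9, which has the most motif matches of the 6, and for the neighbours Ccl12 and Ccl8, whose time courses after injury differed. Capitals mark matches to a TATA box (TATAAA), an AP-1 site (TGANTCA) or the NF-kB consensus, searched on both strands, and the lines run 5′ to 3′ on the strand of the gene.
Ccl9, chr11:83578637-83578886, minus strand: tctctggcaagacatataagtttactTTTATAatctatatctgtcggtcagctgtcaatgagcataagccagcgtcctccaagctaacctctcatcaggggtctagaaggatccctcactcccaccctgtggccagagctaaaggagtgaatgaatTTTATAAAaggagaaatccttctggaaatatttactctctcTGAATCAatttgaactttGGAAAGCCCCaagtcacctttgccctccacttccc
Ccl12, chr11:82101595-82101844, plus strand: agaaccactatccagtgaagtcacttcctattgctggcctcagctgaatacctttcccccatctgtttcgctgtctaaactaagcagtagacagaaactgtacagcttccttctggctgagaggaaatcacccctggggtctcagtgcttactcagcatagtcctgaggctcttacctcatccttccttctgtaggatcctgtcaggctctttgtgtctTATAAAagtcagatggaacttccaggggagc
Ccl8, chr11:82114935-82115184, plus strand: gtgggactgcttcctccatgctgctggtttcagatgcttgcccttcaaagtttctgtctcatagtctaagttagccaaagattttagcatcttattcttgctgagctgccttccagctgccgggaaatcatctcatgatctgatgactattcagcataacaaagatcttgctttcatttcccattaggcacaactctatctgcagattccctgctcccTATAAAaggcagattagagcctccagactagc

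The Ccl9 window holds an NF-kB match 35 to 26 bases before the start and an AP-1 match 53 to 47 bases before it, beside 3 TATA box matches, of which 2 overlap. The Ccl12 and Ccl8 windows each hold 1 TATA box match, starting 31 and 32 bases before the start, and were identical at 161 of 217 aligned bases (74.2%). None of the 6 windows matched the core of the interferon-stimulated response element (GAAA, any 2 bases, GAAA), and the windows of Ccl3, Ccl6 and Ccr2 held none of the 4 motifs. Over the 250 bases before 32851 mouse start sites, the TATA box was found in 12.4%, the AP-1 site in 6.75%, the NF-kB consensus in 3.90% and the response element core in 2.98%. A match describes the letters only.

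Ccl2 and Ccl7, the neighbouring genes of 2 monocyte chemoattractants, had their highest level on day 1 and fell from there. Ccl2 was at 0.494 and 0.856 FPKM on day 0, 23.9 and 27.4 on day 1, 4.36 and 2.35 on day 3, 1.29 and 1.74 on day 5, and then 0.431 and 1.06 on day 10. The libraries of day 1 lie above all others, and those of days 0 and 10 overlap. On the log2(FPKM + 0.1) scale used for all differences here, Ccl2 rose by 5.09 ± 0.44 (SE) from day 0 to day 1 (limma, Benjamini-Hochberg adjusted p = 0.00830) and fell by 2.96 ± 0.44 from day 1 to day 3 (adjusted p = 0.00424). Day 3 was still higher than day 0, by 2.13 (adjusted p = 0.00578), whereas the difference on day 5, 1.09, did not pass (adjusted p = 0.105). With 1 library left out the rise to day 1 was 4.75 to 5.44, and it missed the threshold without day 0 replicate 1 or day 1 replicate 1 (adjusted p of up to 0.0718), while the fall to day 3 passed without any one of the 4 libraries compared.

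Ccl7 had the highest day 1 mean of the members, 46.5 FPKM, with libraries that overlap those of Ccl6. It was at 0.301 and 0.841 FPKM on day 0, 55.2 and 37.9 on day 1, 6.39 and 6.05 on day 3, 1.92 and 3.04 on day 5, and then 0.510 and 1.04 on day 10. Behind these values stood 3 and 9 reads on day 0 and 633 and 399 reads on day 1, and the ratio of the day means was 81.5. The rise to day 1 was 6.22 ± 0.46 (adjusted p = 0.00439) and the fall to day 3 was -2.86 ± 0.46 (adjusted p = 0.00527). Ccl7 was above day 0 by 3.36 on day 3 (adjusted p = 0.00109) and still by 2.03 when day 5 was reached (adjusted p = 0.0215), of which the latter was lost without day 0 replicate 1 or either day 5 library (adjusted p of up to 0.137). Without any one of the 4 libraries of days 0 and 1, the day 1 rise of Ccl7 was 5.61 to 6.84 and passed each time, which held for no other member.

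**Figure D1:**
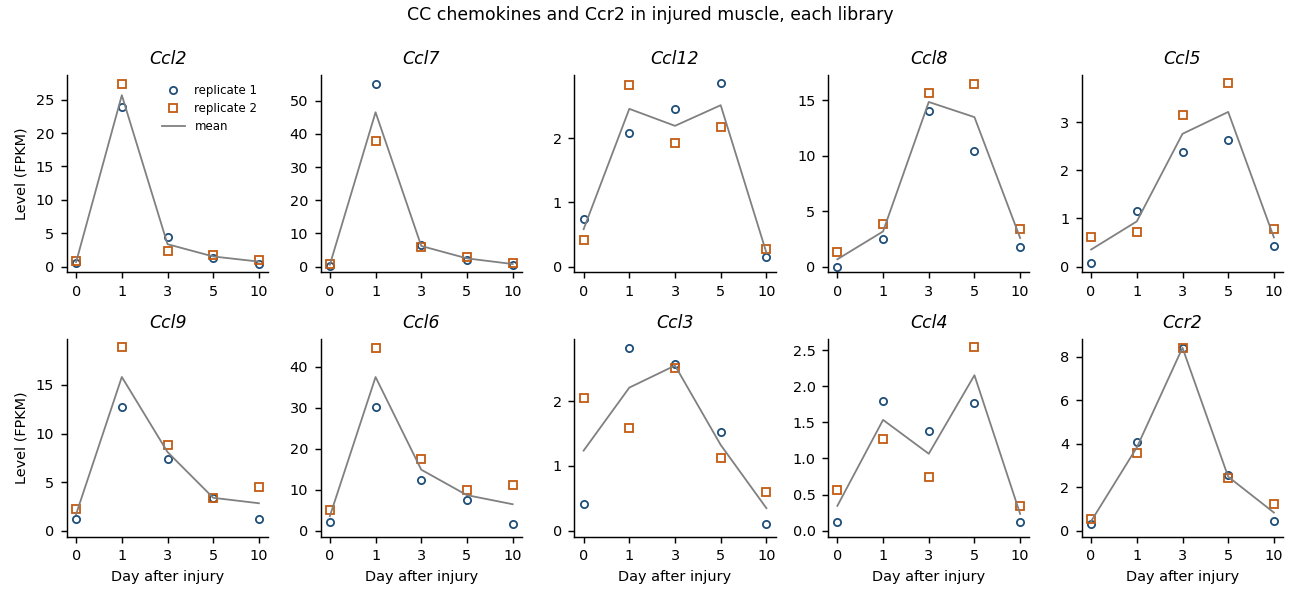
Level of each gene in FPKM (vertical axes, linear, 1 scale per gene) on days 0, 1, 3, 5 and 10 (evenly spaced), with circles for replicate 1, squares for replicate 2 and a line through the mean of the 2 libraries. Ccl2, Ccl7, Ccl6 and Ccl9 stand highest on day 1, Ccr2 on day 3, Ccl8 and Ccl5 on days 3 and 5, and Ccl12 lies between 1.93 and 2.86 FPKM from day 1 to day 5.

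Ccl12 and Ccl8, the other pair of the same gene group, took other courses. Ccl12, whose product also binds CCR2, was at 0.747 and 0.418 FPKM on day 0, 2.08 and 2.83 on day 1, 2.45 and 1.93 on day 3, 2.86 and 2.17 on day 5, and then 0.152 and 0.281 on day 10. It was thus near one level from day 1 to day 5, with libraries that overlap, and its day 10 libraries were below those of day 0. Day 1 was higher than day 0 by 1.93 ± 0.33 (adjusted p = 0.0278). Day 3 was higher by 1.78 (adjusted p = 0.00379), and day 5 by 1.97 (adjusted p = 0.0128). Leaving out 1 library gave adjusted p values of up to 0.115 for day 1 and 0.0902 for day 5, and the day 3 rise passed each time. The difference on day 10, -1.10 ± 0.33, did not pass (adjusted p = 0.404). Each Ccl12 value rests on 1 to 26 reads.

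Ccl8 rose late. It was at 0 and 1.32 FPKM on day 0, 2.46 and 3.87 on day 1, 14.0 and 15.7 on day 3, 10.4 and 16.5 on day 5, and then 1.76 and 3.39 on day 10. Its level on days 3 and 5 overlapped and stood above that of day 1 in each library. Against day 0, Ccl8 was higher by 5.31 ± 1.04 after 3 days (adjusted p = 0.00468). After 5 days it was higher by 5.13 ± 1.04 (adjusted p = 0.0171), which was lost without day 0 replicate 1 or either day 5 library (adjusted p of up to 0.115). The differences of day 1 (3.08 ± 1.04, adjusted p = 0.113) and day 10 (2.76 ± 1.04, adjusted p = 0.454) did not pass, although without day 0 replicate 2 that of day 1 did (4.99, adjusted p = 0.0246). The day 0 library at 0 had no read on Ccl8, which allows up to 0.471 FPKM, so the size of each difference from day 0 depends on the pseudocount, and on day 3 it ran from 3.38 with a pseudocount of 1 to 7.01 with one of 0.01. The step from day 1 to day 3, 2.22 ± 1.04, did not pass (adjusted p = 0.140).

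Of the ligands in the second gene group, Ccl6 and Ccl9, both ligands of CCR1, followed the early course with a slower decline. Ccl6 was at 2.15 and 5.01 FPKM on day 0, 30.3 and 44.7 on day 1, 12.4 and 17.4 on day 3, 7.49 and 9.89 on day 5, and then 1.77 and 11.2 on day 10. Ccl9 was at 1.24 and 2.19 FPKM on day 0, 12.8 and 18.9 on day 1, 7.37 and 8.83 on day 3, 3.39 and 3.40 on day 5, and then 1.21 and 4.46 on day 10. On day 3 they kept 39.7% and 51.2% of their day 1 mean, against 13.1% for Ccl2 and 13.4% for Ccl7. Ccl6 rose by 3.45 ± 0.77 to day 1 (adjusted p = 0.0449) and Ccl9 by 3.16 ± 0.54 (adjusted p = 0.0273). With 1 of the 4 libraries left out, the rise was 2.85 to 4.04 for Ccl6 and 2.77 to 3.54 for Ccl9. The call of Ccl6 was lost without any one of the 4, and that of Ccl9 without some of them. On day 3 Ccl9 was higher than on day 0 by 2.22 (adjusted p = 0.0113, and up to 0.0755 without day 0 replicate 1 or day 3 replicate 2), and the difference of Ccl6, 2.13, missed the threshold (adjusted p = 0.0513). On day 5 neither passed, with differences of 1.36 (adjusted p = 0.225) and 1.00 (adjusted p = 0.207). Ccl6 was the most abundant of the 9 ligands on day 0, at 38.7% and 36.1% of their summed FPKM.

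Ccl5, which T cells and macrophages make, was at 0.0836 and 0.624 FPKM on day 0, 1.16 and 0.714 on day 1, 2.37 and 3.14 on day 3, 2.62 and 3.80 on day 5, and then 0.425 and 0.785 on day 10. As for Ccl8, days 3 and 5 overlapped and lay above all other days. Day 3 was higher than day 0 by 2.96 ± 0.61 (adjusted p = 0.0059). Day 5 was higher by 3.16 ± 0.61 (adjusted p = 0.016, and up to 0.113 with 1 library left out), and the day 1 difference of 1.48 did not pass (adjusted p = 0.173).

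Ccl3 and Ccl4, the macrophage inflammatory proteins, stayed at most at 2.83 FPKM. Ccl3 was at 0.419 and 2.05 FPKM on day 0, 2.83 and 1.59 on day 1, 2.58 and 2.52 on day 3, 1.52 and 1.13 on day 5, and then 0.107 and 0.591 on day 10. The day 0 libraries of Ccl3 overlap with those of days 1 and 5, and its differences on days 1 and 3, 1.07 ± 0.74 and 1.32 ± 0.74, did not pass (adjusted p = 0.397 and 0.177), although the latter did without day 0 replicate 2 (2.35, adjusted p = 0.0341). Ccl4 was at 0.122 and 0.567 FPKM on day 0, 1.80 and 1.27 on day 1, 1.38 and 0.749 on day 3, 1.77 and 2.54 on day 5, and then 0.124 and 0.343 on day 10. Its difference of day 5 from day 0, 2.53 ± 0.58, passed (adjusted p = 0.0222, and up to 0.136 with 1 library left out). The differences of 2.07 for day 1 (adjusted p = 0.0756) and 1.54 for day 3 (adjusted p = 0.0595) did not, although the latter did without day 0 replicate 2 (2.34, adjusted p = 0.0156).

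**Figure D2:**
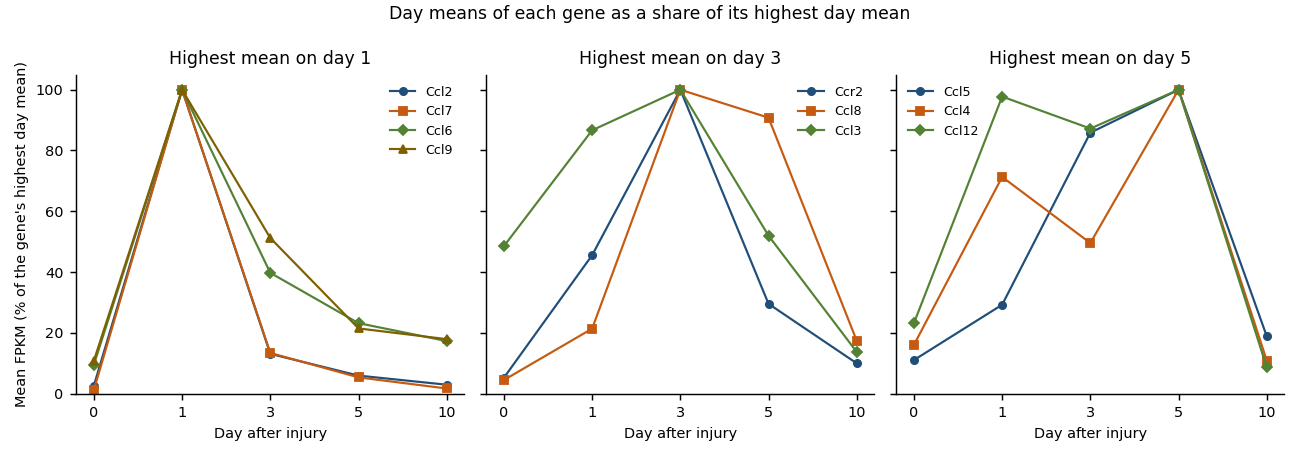
Mean FPKM of the 2 libraries of each day as a percentage of the gene's own highest day mean (vertical axis) on days 0, 1, 3, 5 and 10 (evenly spaced), with the genes grouped by the day of that highest mean. On day 3 Ccl2 and Ccl7 were at 13.1% and 13.4%, Ccl6 and Ccl9 at 39.7% and 51.2%, and on day 1 Ccr2 and Ccl8 were at 45.5% and 21.4%.

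Ccr2, the only receptor among the members, had its highest level on day 3, after that of Ccl2 and Ccl7. It was at 0.332 and 0.543 FPKM on day 0, 4.09 and 3.57 on day 1, 8.42 and 8.40 on day 3, 2.56 and 2.41 on day 5, and then 0.447 and 1.23 on day 10. The libraries of days 1, 3 and 5 do not overlap with each other or with the rest, and those of days 0 and 10 overlap. Against day 0, day 1 was higher by 2.89 ± 0.39 (adjusted p = 0.02). The difference grew to 4.01 ± 0.39 on day 3 (adjusted p = 0.000385), and 2.29 ± 0.39 was left on day 5 (adjusted p = 0.0128). The step from day 1 to day 3, 1.12 ± 0.39, missed the threshold (adjusted p = 0.0615), and the fall from day 3 to day 5, -1.72 ± 0.39, passed (adjusted p = 0.0295). The day 3 rise passed without any one of the 4 libraries compared, whereas with 1 of them left out the adjusted p reached 0.119 for the day 1 rise, 0.0929 for the day 5 difference and 0.122 to 0.157 for the fall to day 5. In bulk tissue, more Ccr2-expressing cells and more Ccr2 RNA per cell cannot be told apart, and the same holds for each member.

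In counts, 6 of the 10 members were higher on day 1 than on day 0 and none was lower, where 6.0% of the 16753 genes tested changed in either direction and 3.53% were higher. Of the 10, 7 were higher on day 3, against 48.8% of all genes changed and 24.5% higher, and 6 were higher on day 5, against 25.5% changed and 12.9% higher. The median difference of the 10 members was 2.99 on day 1, 2.18 on day 3 and 2.00 on day 5, and the median of all genes tested was at most 0.007507 away from 0. All 10 genes passed the filter on low values in muscle. The members called on day 1 were Ccl2, Ccl6, Ccl7, Ccl9, Ccl12 and Ccr2, those on day 3 Ccl2, Ccl5, Ccl7, Ccl8, Ccl9, Ccl12 and Ccr2, and those on day 5 Ccl4, Ccl5, Ccl7, Ccl8, Ccl12 and Ccr2. The 3 comparisons share the day 0 libraries. The counts with 1 library left out were 6 to 9 for day 3, 1 to 5 for day 1 (1 without day 0 replicate 1 and 1 without day 1 replicate 1) and 0 to 6 for day 5 (0 without day 0 replicate 1 or either day 5 library). Without day 0 replicate 1 or day 1 replicate 1, 0.0537% and 0.0776% of all genes were called on day 1. With only the 4 libraries compared in the fit, 0 members and 0 genes were called on day 1, 6 members and 44.7% of genes on day 3, and 1 member and 8% of genes on day 5. Where a left-out library leaves a day with 1 library, the spread comes from the other groups, and the lone library is assumed to vary like them.

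**Figure D3:**
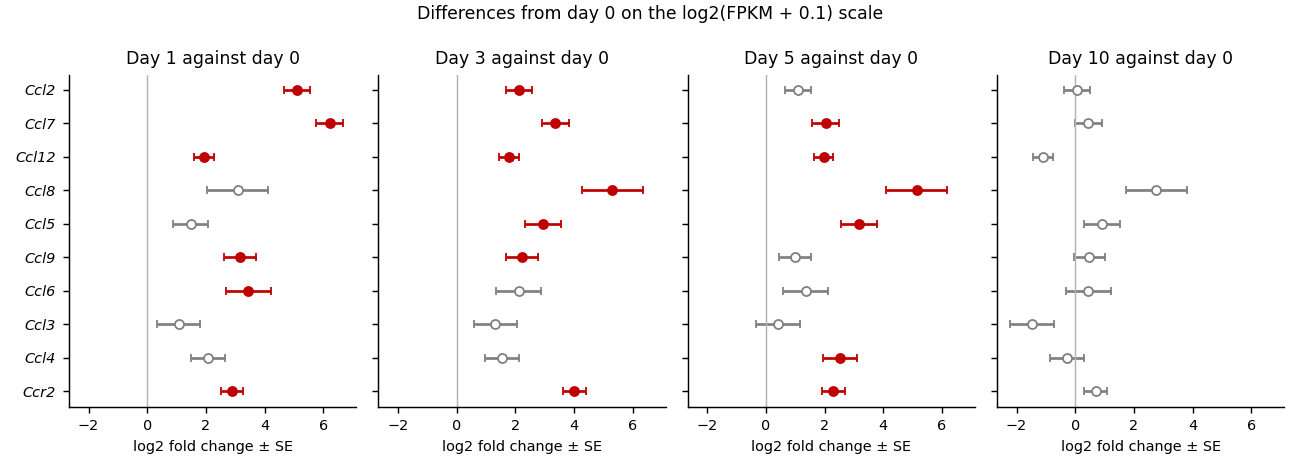
Difference from day 0 on the log2(FPKM + 0.1) scale (horizontal axes) for each member on days 1, 3, 5 and 10, with bars of 1 SE from limma. Filled red points passed the adjusted p threshold of 0.05 (6, 7, 6 and 0 of 10) and open grey points did not. Ccl7 on day 1 stands farthest from 0 at 6.22.

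By day 10 no member differed from day 0 by the test, which called 1 gene of 16753 (0.00597%) in that comparison and gave an unadjusted p under 0.05 for 1697. The differences of Ccr2 (0.69 ± 0.39, adjusted p = 0.574) and Ccl3 (-1.48 ± 0.74, adjusted p = 0.543) did not pass either. Between day 3 and day 10, 8 of the 10 members fell, where 37.9% of all genes changed and 18.8% were lower, with Ccr2 at -3.32 ± 0.39 (adjusted p = 0.000951), Ccl7 at -2.92 (adjusted p = 0.00291) and Ccl12 at -2.88 (adjusted p = 0.000933) the furthest. Ccl6 (-1.69, adjusted p = 0.12) and Ccl8 (-2.55, adjusted p = 0.0897) did not pass. With 1 library left out 3 to 9 members were lower, 3 of them without day 3 replicate 1, 4 without day 3 replicate 2 and 3 without day 10 replicate 1, and Ccl7, Ccl12 and Ccr2 were among them each time. The 2 libraries of day 10 differed, since Ccl6, Ccl9 and Ccr2 were at 11.2, 4.46 and 1.23 FPKM in replicate 2 and at 1.77, 1.21 and 0.447 in replicate 1. From day 1 to day 3 only Ccl2 and Ccl7 were called, both lower, against 31.1% of all genes changed and 16.6% lower, and from day 3 to day 5 only Ccr2 was called, lower, against 12.7% changed and 5.46% lower. With any one of the 4 libraries compared left out, the first count stayed 2 and the second was 0.

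The muscle of days 0 and 10 differs from that of days 1 and 5 in Xist, and with a term for Xist-expressing libraries 0 members and 0 genes were called on day 1 or on day 5 against day 0. Day 3 holds 1 library of each kind, which allows values within one kind, again with the lone library assumed to vary like the other groups. With day 3 replicate 2 alone, which like day 0 expresses Xist, 7 members were higher than on day 0, where 34.9% of all genes changed, and with it left out 6 were, where 31.4% did. With day 3 replicate 1 alone, which like day 1 lacks Xist, Ccl2 and Ccl7 were again the 2 members lower than on day 1, where 8.13% of genes changed. Within the Xist-expressing libraries 3 members were lower on day 10 than on day 3, where 23.5% of genes changed, and within the others 0 members, and 0 genes, passed between days 3 and 5. The 2 day 3 libraries were close for Ccr2 (8.42 and 8.40 FPKM) and Ccl7 (6.39 and 6.05 FPKM).

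Leukocyte markers also changed over the days, not in step with every member, and their part in these results was not tested. The 12 monocyte and macrophage markers summed to 40.6 and 79.9 FPKM on day 0, 308 and 360 on day 1, 1258 and 1264 on day 3, 342 and 369 on day 5, and then 52.9 and 218 on day 10. None of the 12 was at 0 in any muscle library. Lyz2, a lysozyme of myeloid cells, made up most of the sum, with 1069 and 1060 FPKM on day 3. Of these 12, 5 were higher on day 1 and 11 on day 3, where 3.53% and 24.5% of all genes were. Adgre1, the macrophage antigen F4/80, was at 25.2 and 27.5 FPKM on day 3 and at 3.14 and 5.61 on day 1, whereas Itgam, the integrin CD11b, was alike on both days, at 3.36 and 3.23 FPKM on day 3 and 3.20 and 3.41 on day 1. The 8 neutrophil markers summed to 1.71 and 5.55 FPKM on day 0, 19.4 and 10.2 on day 1, 7.17 and 8.41 on day 3, 2.40 and 3.20 on day 5, and then 0.694 and 1.64 on day 10, with 0 to 5 of the 8 at 0. The 8 T and NK cell markers summed to at most 6.03 FPKM, highest on day 3, with 0 to 4 of the 8 at 0. The neutrophil sum of day 1 came mostly from S100a9, at 10.0 and 4.23 FPKM, and S100a8, at 5.23 and 2.19 FPKM, whereas Csf3r, the receptor of a granulocyte growth factor, was highest on day 3, at 5.69 and 6.70 FPKM against 3.44 and 3.1 on day 1. Among leukocyte markers the sums thus rest on a few genes, and single markers differ from them in the day of the highest level. The 5 markers of fibroadipogenic progenitors summed to 66.5 and 128 FPKM on day 0, and from 431 to 515 FPKM over the libraries of days 3 and 5, and the 5 endothelial markers to 30.8 to 84.2 FPKM over all days. The 7 markers of mature fibres, which define the labelled tissue, summed to 49974 and 50847 FPKM on day 0 and to 11405 and 13429 on day 3.

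**Figure D4:**
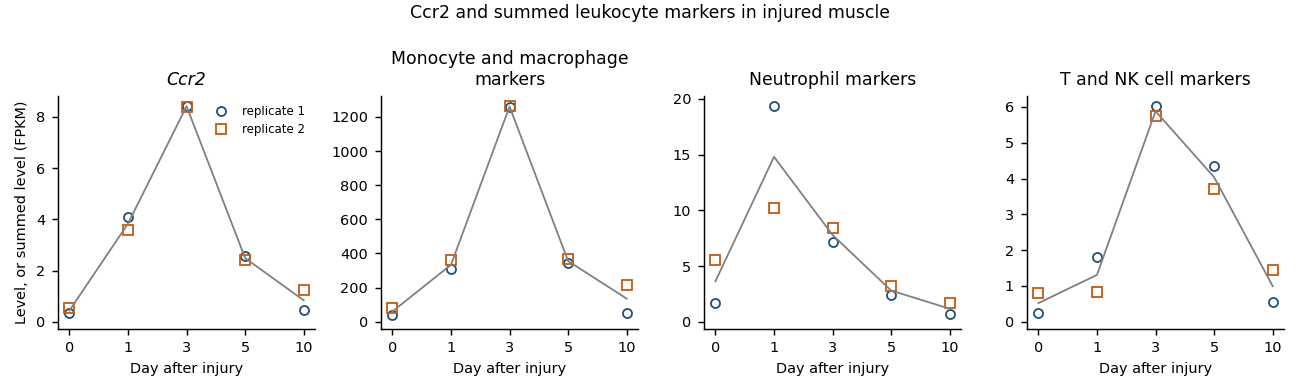
Level of Ccr2 and summed level of the 12 monocyte and macrophage, 8 neutrophil and 8 T and NK cell markers in FPKM (vertical axes, linear) on days 0, 1, 3, 5 and 10 (evenly spaced), with circles for replicate 1, squares for replicate 2 and a line through the means. Ccr2 and the monocyte and macrophage markers stand highest on day 3, at 8.40 and 8.42 FPKM and at 1258 and 1264 FPKM, and the neutrophil markers on day 1, at 10.2 and 19.4 FPKM.

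The other genes of the pathway were read from lists. Of 15 other CC chemokine ligands, 5 passed the filter and 0 were called on day 1. On day 3 and on day 5, 1 of the 5 was called, higher, where 24.5% and 12.9% of all genes were higher. This was Ccl22, a ligand of CCR4, on day 3 (1.95, adjusted p = 0.0278) and day 5 (2.73, adjusted p = 0.0198). Its mean was 0.0644 FPKM on day 0 and 0.907 on day 5. Of 14 other CC receptors and scavengers, 6 passed the filter. Of these, 2 were higher on day 1, beside 3.53% of all genes, among them Ccr1, which binds CCL6 and CCL9 (2.96, adjusted p = 0.0499). On day 3, 2 of the 6 were higher, a share near the 24.5% of all genes, among them Ccr7, a receptor of dendritic cells and T cells (2.45, adjusted p = 0.00628). Another 2 of the 6 were lower, a share near that of all genes, of which 4075 among 16753 were lower. These were Ackr4 (-1.53, adjusted p = 0.00152) and Ccrl2 (-1.81, adjusted p = 0.0182).

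Of 27 genes that carry the signal of chemokine receptors in leukocytes, 8 were higher on day 1, 20 on day 3 and 14 on day 5, beside 3.53%, 24.5% and 12.9% of all genes, and 1, Grk2, was lower on day 5. The median difference of these 27 was 1.23, 2.54 and 1.29. Among the rises on day 3 were those of Fgr, a kinase of myeloid cells (4.20, adjusted p = 0.000269), and of the integrin gene Itgal (4.03, adjusted p = 0.000263). Of 23 inducers and regulators of chemokine transcription, 20 were tested. On day 1, 5 were higher, beside 3.53% of all genes, namely Fosl1 (2.65, adjusted p = 0.0449), Tlr2 (2.48, adjusted p = 0.0386), Nfkb2, Myd88 and Nfkbia, the last of which encodes an inhibitor of NF-kB. On day 3, 9 were higher and 1 was lower, and on day 5, 4 were higher, beside 24.5% and 12.9% of all genes higher. From day 1 to day 3, 3 rose and 3 fell, shares near those of all genes, of which 2435 rose and 2778 fell among 16753. Fosl1, a subunit of AP-1, was at a mean of 0.788 FPKM on day 0, 6.69 on day 1 and 1.23 on day 3, and its fall to day 3 passed (-2.04, adjusted p = 0.0346).

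Over the 10 muscle libraries, the protein-coding genes closest to each member by Pearson's r on the log2 scale are given as a description, since these libraries share their days. For Ccr2 they were Coro1a (0.998), Sart3 and Emp3. For Ccl2 they were Nfkbia (0.970) and the metallothionein genes Mt2 and Mt1, and for Ccl7 they were Mt2 (0.970), Pdpn and Krt80. Ccl6 and Ccl9 shared Osmr and Slc39a1 among their closest 3. For Ccl8 the closest was Prr5 (0.989), for Ccl5 Myo9a (0.967), for Ccl3 Gng12 (0.979), for Ccl4 Dnmt1 (0.953) and for Ccl12 Ctps2 (0.935).

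In C2C12 cells the members split into those that the myoblasts expressed and those at or near 0. Ccl2, Ccl7, Ccl8, Ccl9 and Ccl5 passed the filter, and Ccl3, Ccl4, Ccl6, Ccl12 and Ccr2 did not. Ccr2 had 1 read in all 8 libraries together, and Ccl12 was at 0 in all 8, where 3 reads would have given 0.176 to 0.579 FPKM. Ccl4 was at most 0.048 FPKM, Ccl6 at most 0.228 and Ccl3 at most 0.406. The markers of leukocytes were near 0 in part, since Adgre1 and Itgam were at 0 in all 8 libraries, Ptprc (CD45) was at most 0.00392 FPKM and Cd3e was at 0, whereas Cd14 was at 5.98 to 16.3 FPKM and Ly6c2 at 1.46 to 17.7 FPKM.

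Ccl7 was the most abundant member in every C2C12 library and was lowest in the differentiated control cells. It was at 157 and 67.2 FPKM in CTRL GM, 169 and 106 in Cas9M3 GM, 24.9 and 30.6 in CTRL DM3, and 226 and 148 in Cas9M3 DM3. On DM3 both knockdown libraries were above both control libraries, by 9.04-fold in replicate 1 and 4.82-fold in replicate 2, and in GM the 2 groups overlapped. On the log2(FPKM + 0.1) scale Ccl7 was higher in Cas9M3 by 2.72 ± 0.46 on DM3 (adjusted p = 0.048) and by 0.39 ± 0.46 in GM (adjusted p = 0.823). It was the only member of 5 tested that was called on DM3, where 1.98% of 13824 genes changed and 1.29% were higher (3.65% changed with the replicate number as a block, which left Ccl7 the only one called). The call rests on all 4 libraries, since without any one of them the difference was 2.41 to 3.02 with an adjusted p of 0.301 to 0.349, and it was lost in 3 of 8 other settings (adjusted p of up to 0.0644). In GM 0 of 5 members and 0% of genes were called by limma, with an unadjusted p under 0.05 for 1244 genes.

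Ccl2 and Ccl8 showed the same order of groups on DM3 without passing the test. Ccl2 was at 92.8 and 29.9 FPKM in CTRL GM, 71.5 and 47.3 in Cas9M3 GM, 16.1 and 22.6 in CTRL DM3, and 92.8 and 46.5 in Cas9M3 DM3. Ccl8 was at 29.1 and 15.4 FPKM in CTRL GM, 30.6 and 13.2 in Cas9M3 GM, 12.3 and 23.6 in CTRL DM3, and 65.5 and 46.5 in Cas9M3 DM3. For both, the DM3 libraries of the 2 lines do not overlap and the GM libraries do. Of all genes tested, 29.3% likewise had both Cas9M3 libraries above both CTRL libraries on DM3. The differences on DM3 were 1.78 ± 0.60 for Ccl2 (adjusted p = 0.191) and 1.69 ± 0.54 for Ccl8 (adjusted p = 0.173). With only the 4 DM3 libraries in the fit, 4 of the 5 members tested passed, Ccl9 being the exception, where 19.1% of all genes were called.

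Ccl5 differed between the replicate numbers. In GM it was at 0 and 4.85 FPKM in CTRL and at 0.396 and 6.30 in Cas9M3, with the higher value in replicate 2 of each line. On DM3 it was at 0.0760 and 0 FPKM in CTRL, from 2 reads and 0 reads, and at 2.24 and 3.47 in Cas9M3, from 60 and 49 reads (adjusted p = 0.311). Ccl9 was at 4.46 and 23.2 FPKM in CTRL GM, 6.31 and 7.44 in Cas9M3 GM, 4.55 and 5.23 in CTRL DM3, and 5.90 and 6.48 in Cas9M3 DM3. Apart from the high value of CTRL GM replicate 2, the library that stands apart, Ccl9 stayed between 4.46 and 7.44 FPKM, and its difference on DM3 was 0.34 ± 0.68 (adjusted p = 0.883), with a 95% interval of -1.32 to 1.99.

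**Figure D5:**
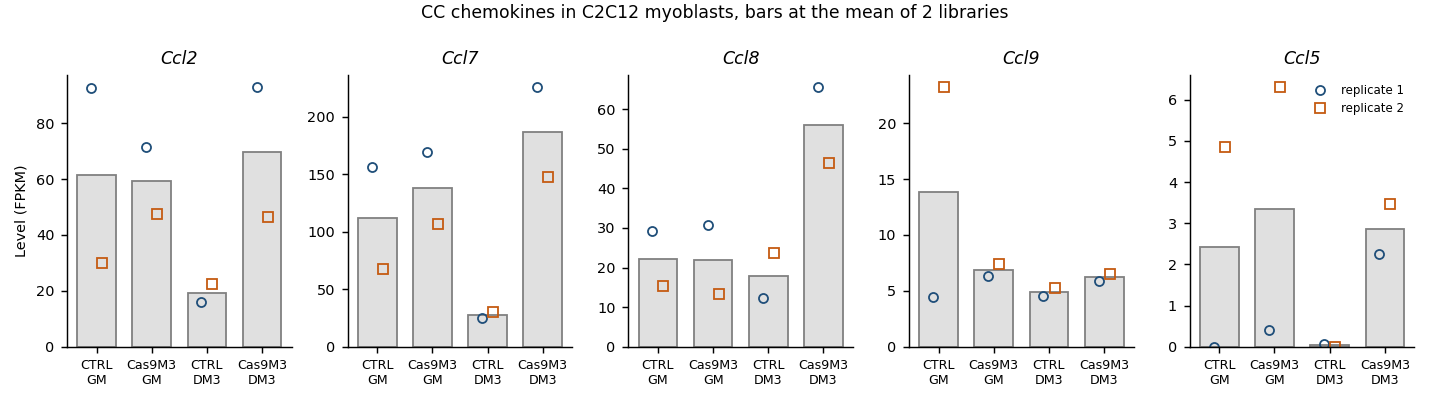
Level in FPKM (vertical axes, linear from 0, 1 scale per gene) of the 5 members that passed the filter in C2C12 cells, for CTRL and Cas9M3 in GM and on DM3, with bars at the mean of 2 libraries, circles for replicate 1 and squares for replicate 2. On DM3 the Cas9M3 libraries lie above the CTRL libraries for all 5 genes, as they do for 29.3% of all genes tested, and of these 5 Ccl7 passed the test.

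On differentiation of the control line, Ccl7 differed by -1.89 ± 0.46 (adjusted p = 0.122) and Ccl2 by -1.46 ± 0.60 (adjusted p = 0.270), and 0 of 5 members were called, where 1.14% of genes changed. Without CTRL GM replicate 1, 2 members were called, Ccl5 and Ccl9, both lower, and with them 26.6% of all genes. CTRL GM is then replicate 2 alone, the library with 29.5% of its reads on ribosomal RNA. In the knockdown line the DM3 level of Ccl7 was 1.33 and 1.39 times the GM level in the 2 replicates (0.44 ± 0.46, adjusted p = 0.820) and Ccl8 differed by 1.45 ± 0.54 on the log2 scale (adjusted p = 0.339), and 0 of 5 members were called, against 0.0289% of genes. A difference between the 2 effects of the knockdown, on DM3 and in GM, did not pass, since the interaction was 2.33 ± 0.66 for Ccl7 (adjusted p = 0.398), 1.76 ± 0.76 for Ccl8 (adjusted p = 0.587) and 1.64 ± 0.84 for Ccl2 (adjusted p = 0.632). In the interaction, 0 of 13824 genes passed with limma, and 1198 had an unadjusted p under 0.05.

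The 2 lines also differed on DM3 in markers of muscle fibres, and the part of this in the chemokine levels was not tested. The 7 mature fibre markers summed to 472 and 428 FPKM in CTRL DM3 and to 12.8 and 9.79 in Cas9M3 DM3. In CTRL DM3 the highest single marker gave 414 and 362 FPKM of these sums. In GM they summed to 120 and 13.0 FPKM in CTRL and to 77.4 and 4.23 in Cas9M3. Of 5 fibre markers tested on DM3, 1 was called, lower in Cas9M3, where 1.98% of all genes changed. The paper reports more myosin heavy chain protein and more fusion when Mettl3 was repressed, the opposite direction in a different measure. Of 18 inducers and regulators of chemokine transcription tested in the myoblasts, Tlr2 was higher in Cas9M3 on DM3 (1.46, adjusted p = 0.0430), with means of 29.3 and 10.5 FPKM. Irf7, which encodes an interferon regulatory factor, did not pass (4.22, adjusted p = 0.0779). Of the monocyte and macrophage markers, Cd14 was higher (1.17, adjusted p = 0.0367). Of the other CC ligands, 3 were tested and 0 called, among them the eosinophil attractant Ccl11 at means of 23.0 FPKM in Cas9M3 DM3 and 10.0 in CTRL DM3 (adjusted p = 0.260). Among 7 m6A writer genes only Mettl3 was called on DM3 (-4.56, adjusted p = 0.0187).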

How the data were processed

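The authors deposited FPKM values, made with DESeq2 from featureCounts counts of HISAT2 alignments to GRCm38, in 2 tables scaled separately, of 10 muscle and 8 C2C12 libraries. Another 8 libraries, of overexpression, were not analysed here. Samples were grouped by their labels, whose text does not say whether the 2 libraries of a group came from separate animals or cultures. The methods speak of independent biological samples in general, and the 2 day 3 libraries differ in Xist. Elsewhere p-values may measure only technical spread. Genes that reached 0.5 FPKM in 2 or more libraries were fitted with limma 3.58.1 (mean-variance trend) in R 4.3.3 on log2(FPKM + 0.1), all groups of a table together, with Benjamini-Hochberg adjustment over all genes tested and calls at an adjusted p of at most 0.05. Differences on this scale are too small for low genes. An exact permutation test of 2 libraries against 2 cannot give a two-sided p below 0.333. The members and gene lists were chosen with earlier results of these data known. All 10 members are named. From the lists, large called rises and falls and genes that a sentence needs are named, some after their values were seen (Tlr2, Irf7, Ccl11, Cd14, Adgre1).

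Reads per library and value were derived from the steps of the FPKM values with GENCODE M21 exon lengths (53360 of 53465 and 55227 of 55487 genes matched), and cover counting error only. The strand setting of the counting is not given in the sources used here. On simulated tables, the fit recovered 82.0% of genes changed by 2 on the log2 scale for day 1 against day 0 (16753 genes). For Cas9M3 against CTRL on DM3 (13824 genes) it recovered 67.0%, and 9 and 10 unchanged genes were called. The changed genes had a mean log2(FPKM + 0.1) above 1, and the noise was normal and independent between libraries. Lower genes, such as Ccl3, Ccl4, Ccl5 and Ccl12 in muscle, and effects shared within a library are thus not covered. Deviations of same-numbered C2C12 libraries from their group means correlated at 0.278 to 0.680 in 6 pairs of groups, each over 0.1. The numbers thus pair these libraries, for a reason that no source gives. Printed values come from the fit without the block unless the block is named. With the replicate number as a block the DM3 change of Ccl7 had an adjusted p of 0.0244, and no member's call changed in that table. Python 3.11.15, pandas 2.3.3, numpy 2.4.6 and matplotlib 3.10.9 were used. Some genes of the lists are not reported here.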

Additional observations from a re-analysis of the deposited data

Results flagged for a closer look

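Within each replicate number, Ccl7 fell from GM to DM3 in CTRL and rose in Cas9M3. Neither change passed by limma, at -1.89 ± 0.46 in CTRL (adjusted p = 0.122) and 0.44 ± 0.46 in Cas9M3 (adjusted p = 0.820). In Cas9M3 the libraries of GM and DM3 overlap, so a rise there is not shown. In CTRL the DM3 level was 0.159 and 0.455 times the GM level of the same replicate number, and in Cas9M3 it was 1.33 and 1.39 times that level. The difference between the 2 changes was 2.33 ± 0.66 on the log2(FPKM + 0.1) scale (limma, unadjusted p = 0.0110, adjusted p = 0.398, and 0.214 with the replicate block), so it did not pass the correction over all genes. The groups hold 2 libraries, too few for a test of single outlying libraries.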

How the results depend on the processing

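Of 114 counts of members called under other settings, 94 stayed within 1.5 times the reported one, as did 35 of 52 with 1 library left out. These include comparisons with 0 members called, which counted as unchanged where they stayed at 0. Scaling by median ratios repeats the reported fit, so its counts and fold changes could not move. The cause of the other changes was not tested. The 6 members called on day 1 became 3 with no filter on low values, 0 with a term for Xist-expressing libraries and 0 with only the groups compared in the fit (1 to 5 with 1 library left out). The 6 of day 5 became 0 with the Xist term and 1 with only the groups compared (0 to 6). The 2 called between days 1 and 3, both lower on day 3, became 5 with a pseudocount of 1, where 3 were higher, and 4 with only the groups compared, where 2 were higher. The single one lower on day 5 than on day 3 became 2 with a pseudocount of 1, 2 with quantile normalization and 3 with only the groups compared, and 0 with no filter, with the Xist term, with a log2 change of at least 2 required, or with any of the 4 libraries compared left out. The 8 lower on day 10 than on day 3 became 5 with no filter, 3 with the Xist term and 5 with only the groups compared (3 to 9). The member called in Cas9M3 on DM3 became 0 with a pseudocount of 0.01, with no filter, with quantile normalization or with any of the 4 libraries compared left out, and 4 with only the groups compared. For DM3 against GM in CTRL, 0 became 0 to 2.

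Of 560 fold changes of single members under other settings, 490 kept their direction and call, 49 lost the call, 21 gained it and 0 changed direction, and of 268 with 1 library left out 207, 56, 4 and 1 did so. The latter was Ccl7 in GM, at -0.22 to 1.00 around 0.39, below 0 without CTRL GM replicate 2. In muscle, same-numbered libraries correlated at -0.0187 to 0.211, over 0.1 only for day 10 with day 0 (0.211) and with day 5 (0.117). The replicate block gave 6, 8, 6 and 0 members on days 1, 3, 5 and 10 against day 0. It gave 10 members lower on day 10 than on day 3. In C2C12 the block, which changed no member's call, raised the genes called on DM3 from 274 to 319 higher and 186 lower, and those of CTRL on differentiation from 158 to 258 higher and 153 lower. Depth limits Ccl12, Ccl5, Ccl4 and Ccl8 on days 0 and 10, which rest on few reads.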
